A study of Mus musculus with 24 samples.

Results

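The regions described here are the binding sites of CTCF and of the cohesin subunit Rad21 called within the mouse immunoglobulin heavy-chain locus (Igh). Mouse peaks of all 16 peak lists of the series were merged wherever they overlapped by at least 1 bp, and the merged intervals, called members below, were kept when they lay on chromosome 12 between 114300000 and 117600000. Of 90338 members on the mouse chromosomes, 764 (0.846%) lay in this 3.3-Mb window, which runs from the constant-region end of the locus to the end with the distal variable (VH) segments. Positions are those of the hybrid of the mouse build mm9 with a further Igh sequence entry to which the reads were aligned, per the labels. No member crossed an edge of the window.

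All libraries came from v-Abl transformed pro-B cell lines, which are virally transformed early B-lineage cells, with RAG2 deficiency and an Eμ-Bcl2 transgene, and all cells received the Abl kinase inhibitor STI-571 at 3 µM for 4 days. Rad21 was precipitated from a Rad21-degron line without the auxin IAA (2 libraries) and with it (2 libraries), from the parental line (3 libraries) and from a CTCF-degron line with IAA (3 libraries). CTCF was precipitated from the parental line (3 libraries) and from the CTCF-degron line with IAA (3 libraries). A degron is a tag through which IAA directs the tagged protein to degradation, and IAA was given at 500 µM from 6 h before STI-571. The CTCF-degron line was compared with the parental line and not with itself without IAA, so effects of the line and of IAA cannot be told apart.

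Igh is assembled in pro-B cells from VH, D and JH segments by the RAG endonuclease, which this line lacks. Cohesin is a ring that extrudes chromatin loops, and CTCF bound to its motif in one orientation halts that extrusion. Igh is known for its many CTCF-binding elements among the VH segments and for a cluster of them, the 3′ CBEs, beyond the constant-region end, whose motifs point towards the VH segments.

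Whether a position on the hybrid can be read from plain mm9 was tested with the CTCF motif. A matrix of 20 bases was learned from CTCF members of the other autosomes and X, and a match was a score of at least 10 bits on either strand. Such a match lay within 100 bp of the centre of 58.5% of those 31927 members, and within 100 bp of the point 5 kb from the centre of 4.36% of them. At the same coordinates of mm9 it was found at 64.0% of 1200 CTCF members of chromosome 12 before the window. In the first 2 bins of 100 kb it was found at 9 of 15 CTCF members, against 2 of 209 in the other 31 bins. Sequences and genes are therefore given only for chr12:114300000-114499999, with genes from GENCODE vM1.

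The sequences below are those of the 10 motif matches in 3 adjacent CTCF members of the interval between the U6 small nuclear RNA gene and Gm900, annotated as an immunoglobulin constant-region gene. They are shown because they lie close together on one strand. The member with 7 of them had the highest mean parental fold enrichments (explained below) of the 15 CTCF members here, 15.6 for CTCF and 22.5 for Rad21. The other members of the cluster were not among the strongest for CTCF, with means of 9.65 and 9.46. Each is 50 bases of NCBIM37 (mm9), printed 5′ to 3′ on the strand of the match, with the 20 bases of the match in capitals. None lies in an annotated exon or UTR.
chr12:114454310-114454359, plus strand: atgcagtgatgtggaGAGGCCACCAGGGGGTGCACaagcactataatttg
chr12:114455654-114455703, plus strand: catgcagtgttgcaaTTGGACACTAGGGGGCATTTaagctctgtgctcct
chr12:114456278-114456327, plus strand: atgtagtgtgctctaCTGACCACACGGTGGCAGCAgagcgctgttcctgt
chr12:114458245-114458294, plus strand: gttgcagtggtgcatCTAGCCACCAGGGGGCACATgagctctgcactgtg
chr12:114458878-114458927, plus strand: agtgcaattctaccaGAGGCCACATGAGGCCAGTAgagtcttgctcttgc
chr12:114459378-114459427, plus strand: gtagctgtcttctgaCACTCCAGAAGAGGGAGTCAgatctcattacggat
chr12:114459600-114459649, plus strand: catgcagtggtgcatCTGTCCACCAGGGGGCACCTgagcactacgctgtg
chr12:114460408-114460457, plus strand: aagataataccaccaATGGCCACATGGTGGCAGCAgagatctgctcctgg
chr12:114460673-114460722, plus strand: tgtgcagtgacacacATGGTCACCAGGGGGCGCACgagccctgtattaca
chr12:114462588-114462637, plus strand: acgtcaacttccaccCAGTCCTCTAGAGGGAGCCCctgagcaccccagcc
All 10 matches lay on the plus strand. They spanned 8298 bp, and the start of one match lay 222 to 1967 bp from the start of the next (median 633 bp). The other 12 CTCF members of the first 200 kb held 12 matches, 4 on the plus and 8 on the minus strand. Of these, the pair below comes from members where both CTCF and Rad21 were lost in the CTCF-degron line with IAA. They are an intronic member of Mta1 (a subunit of a chromatin-remodelling complex) and the member nearest to Gm900. The pair does not stand for the strand of lost sites. Members chr12:114357453-114358244 and chr12:114382416-114383397 lost both too and held plus-strand matches. The 9 members that lost CTCF held 3 plus-strand and 4 minus-strand matches.
chr12:114340873-114340922, minus strand: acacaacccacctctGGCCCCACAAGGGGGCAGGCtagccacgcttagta
chr12:114495656-114495705, minus strand: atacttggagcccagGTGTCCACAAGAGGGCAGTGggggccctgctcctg

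The 3 members with the plus-strand cluster covered chr12:114453980-114454823, chr12:114454896-114456743 and chr12:114457306-114463207, 8594 bp in sum within a stretch of 9228 bp, and held 1, 2 and 7 matches. Fold enrichment is the authors' ratio of signal to background, given here for the highest peak of a member in each list. The widest member, of 5902 bp, had CTCF fold enrichments of 14.2, 15.0 and 17.6 in the parental libraries. They were 9.40, 14.1 and 8.16 in the CTCF-degron libraries with IAA. Its Rad21 fold enrichment was 27.9, 22.5 and 17.1 in the parental line and 17.6, 17.2 and 9.97 in the CTCF-degron line. It was thus called in every library of both CTCF-depletion comparisons. In the Rad21-degron line its fold enrichment was 14.2 and 11.8 without IAA, and neither library with IAA held a peak there. Folds of different lists are set side by side as descriptions and were not tested, since each list has its own background. Wide members can hold several peaks of a list, so their fold can be the highest of more values than that of narrow ones.

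The member of 1848 bp with 2 matches was called in the same lists. Its CTCF folds were 9.84, 8.41 and 10.1 in parental and 6.67, 11.002 and 6.34 in CTCF-degron libraries, and its Rad21 folds were 14.1, 12.6 and 6.54 and then 13.3, 10.9 and 6.24. In the Rad21-degron line it had folds of 8.25 and 8.78 without IAA and no peak with IAA. The member of 844 bp with 1 match had CTCF folds of 8.11, 8.39 and 12.4 in the parental line and a peak in 1 of the 3 CTCF-degron libraries, at 5.20. All 3 members were therefore called for CTCF in at least 1 CTCF-depleted library, and none was called for Rad21 after Rad21 depletion.

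Of the 15 CTCF members of the first 200 kb, 9 were lost, 5 were kept in every CTCF-degron library and 1 was kept in 1 library. The 5 kept members held 14 motif matches and the 9 lost members held 7. Matches were counted over whole members, 7 of the 14 lay in the widest kept member, and matches per kb were not compared. The kept members had a median width of 1563 bp and the lost members one of 792 bp. Besides the pair in the cluster, the kept members were chr12:114384083-114384890, 368 bp from Crip2, chr12:114393367-114394929, which overlaps an exon of a RIKEN gene, and chr12:114406128-114407556 in an intron of that gene. The last of these had 2 of the higher-scoring matches, 21.7 and 20.8 bits, but low CTCF folds of 3.91, 3.38 and 3.64 in parental and 4.71, 4.59 and 4.52 in CTCF-degron libraries.

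Several lost members had high folds in the control lists. At chr12:114313011-114313965, over an exon of Tex22, the CTCF folds were 9.91, 10.3 and 13.6 in the parental line and no CTCF-degron library held a peak. At chr12:114425467-114426368, over an exon of Tmem121, they were 9.81, 10.0 and 13.1, again with no CTCF peak after depletion. Rad21 at the Tmem121 member had folds of 21.5, 18.2 and 10.3 in the parental line and was still called in 2 of 3 CTCF-degron libraries, at 4.46 and 4.76. Of the 14 CTCF members in this stretch that were also called for Rad21 in every parental library, 5 lost Rad21 after CTCF depletion and 5 kept it in all 3 libraries. Of the 12 called for Rad21 in both Rad21-degron libraries without IAA, 11 were lost with IAA. Over all mouse control members 69.7% were lost for CTCF after CTCF depletion and 92.3% for Rad21 after Rad21 depletion. The lost shares of the first 200 kb, 9 of 15 and 11 of 12, lay near these values. The share kept for CTCF was higher, with 5 of 15 members kept in every CTCF-degron library against 13.6% over all mouse control members. For Rad21 after CTCF depletion, 41.4% of all mouse control members were lost and 35.7% kept in every library. Differences of the first 200 kb from this background were not tested.

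**Figure D1:**
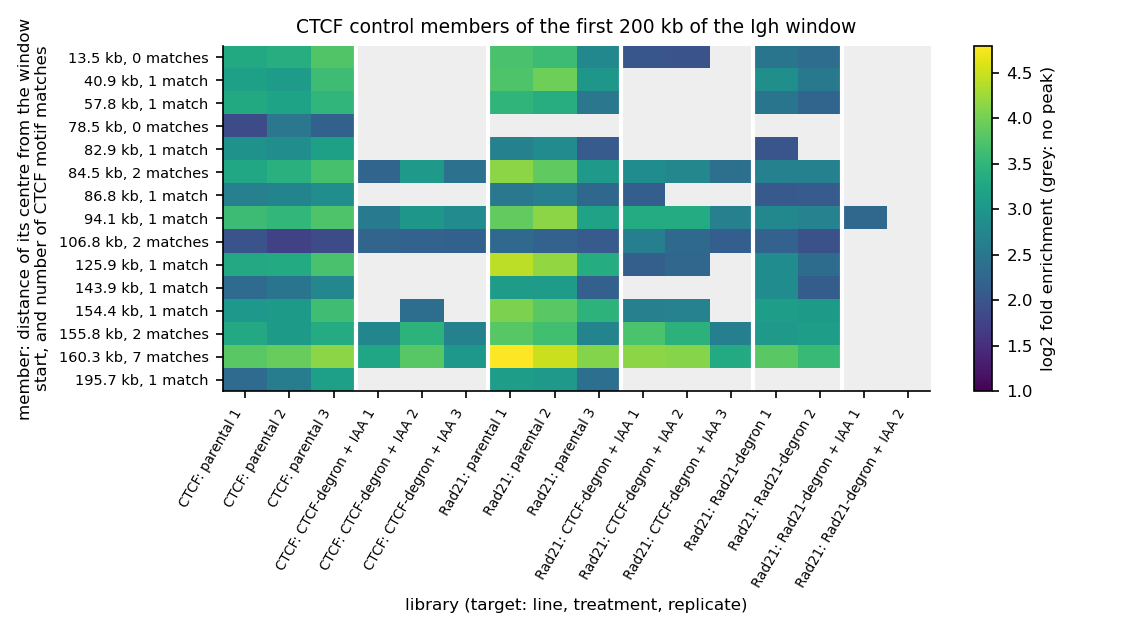
Log2 fold enrichment (colour, authors' value) at the 15 CTCF control members of the first 200 kb of the window (rows, by distance from the window start in kb, with the number of motif matches) in the 16 libraries (columns); grey means that the library holds no peak. The row with 7 matches is coloured in all CTCF, parental Rad21 and CTCF-degron libraries, and the last 2 columns, Rad21 after Rad21 depletion, are grey except for 1 cell.

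The number of members called in the window differed between libraries of one kind as well as between groups. CTCF members numbered 384, 379 and 302 in the parental libraries and 168, 158 and 124 in the CTCF-degron libraries with IAA, with no overlap between the groups. When only as many top peaks by fold were taken from each list as the shortest one holds, the order turned (log2 1.101). In the full lists the geometric mean was 2.37-fold lower with depletion (log2 -1.25, exact two-sided permutation p = 0.1, the smallest that 3 against 3 can give). Rad21 members numbered 214 and 165 in the Rad21-degron libraries without IAA and 30 and 17 with IAA, a geometric mean 8.32-fold lower (log2 -3.06, exact permutation p = 0.333, the smallest for 2 against 2). Every library with IAA lay below every library without it.

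Rad21 members after CTCF depletion overlapped those of the parental line. They numbered 453, 186 and 148 in the parental and 316, 239 and 161 in the CTCF-degron libraries (log2 -0.01, exact permutation p = 1). Parental Rad21 replicate 1 stood apart, with 83 members called in no other list, and it is one of the libraries without human HCT116 spike-in cells. Without it the log2 difference was 0.47, and in the spike-in libraries alone it was 0.24. The Rad21-degron line without IAA and the parental line overlapped too (log2 -0.30, exact permutation p = 0.9, and 0.18 without parental replicate 1).

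The window held a larger share of the called members in each depleted group, although the number of members called there was lower or overlapped that of the controls. For CTCF the share was 0.816, 0.854 and 0.697% of all mouse members called in the parental libraries and 1.24, 1.11 and 1.70% in the CTCF-degron libraries. For Rad21 it was 0.688, 0.477 and 0.573% in the parental and 1.01, 1.08 and 1.24% in the CTCF-degron libraries. In the Rad21-degron line it was 0.731 and 0.824% without IAA and 0.971 and 1.797% with it. The groups did not overlap in any of the 3 comparisons (CTCF, Rad21 after CTCF depletion and Rad21 after Rad21 depletion), with log2 differences of 0.76 (exact permutation p = 0.1), 0.95 (exact p = 0.1) and 0.77 (exact p = 0.333). Adjusted by Benjamini-Hochberg over the 18 tests of this kind the lowest p was 0.45, so none passed. The Rad21-degron difference turned to -1.39 among members under 1000 bp. It was -0.38 with lists shortened to the shortest and -2.75 with at least 50% of a member covered. The Rad21-degron line to which no IAA was given also had a larger share than the parental line (log2 0.44, exact permutation p = 0.2). Protein levels are not among these data.

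**Figure D2:**
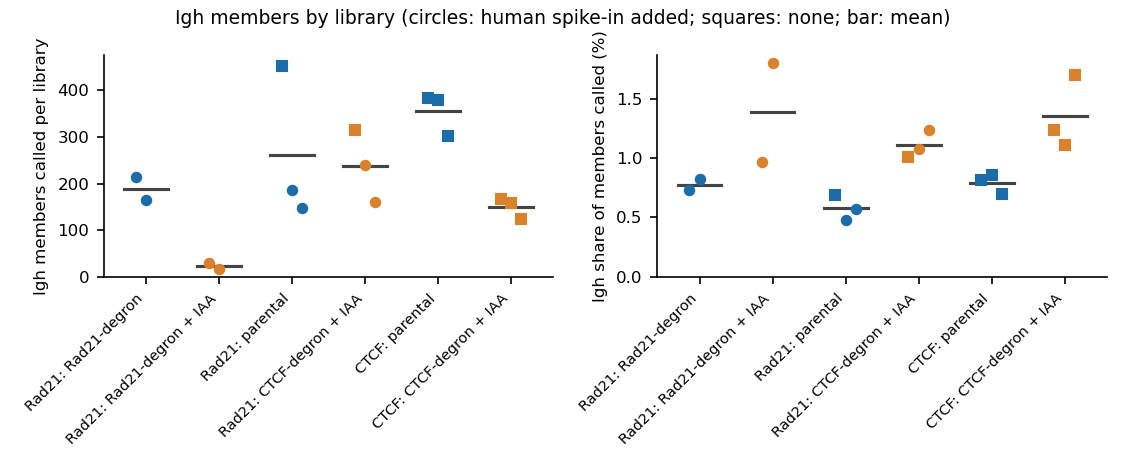
Members of the Igh window called in each of the 16 libraries (left, number) and their share of all mouse members called in that library (right, percent); points are libraries, bars are group means, and orange marks IAA. On the left the depleted CTCF and Rad21-degron libraries lie below their controls, and on the right each depleted group lies above its control.

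A control member is one called in every control library of a group. By this rule the window held 224 CTCF control members (parental line), 139 Rad21 control members (parental line) and 141 Rad21 control members of the Rad21-degron line without IAA. Rad21 was called at 214 of the 224 CTCF members in at least 1 parental library and at 122 in all 3 (95.5 and 54.5%, against 94.4 and 61.2% over all mouse CTCF control members). Conversely, 136 of the 139 Rad21 members held a CTCF peak in at least 1 parental library (97.8%, against 95.4%). The Rad21 control members of the parental and the Rad21-degron line shared 111 members, 79.9% of the first and 78.7% of the second. Of all 764 members, 318 were called in 1 list alone, with a median width of 109.5 bp.

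Members of any kind lay 23.2 per 100 kb in the window, against 3.40 per 100 kb in the other autosomal and X sequence. The higher density was thus not particular to control members. CTCF control members were 29.3% of the members of the window and 37.0% of all mouse members, and Rad21 control members 18.2 and 27.6%. CTCF control members lay 6.79 per 100 kb in the window, against 1.26 per 100 kb in the other autosomal and X sequence. Rad21 control members lay 4.21 per 100 kb, against 0.941. Within the window they were not even. The first, middle and last 1.1 Mb held 45, 52 and 127 CTCF control members, and 31, 39 and 69 Rad21 control members. The median gap between neighbouring CTCF control members was 16.7 kb in the first, 19.5 kb in the middle and 4.07 kb in the last 1.1 Mb. Of the 126 gaps in the last 1.1 Mb, 68 were under 5 kb.

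The widest gap without a CTCF control member was 173.8 kb, between chr12:114495237-114496075 and chr12:114668023-114670893. It held 22 other members, 4 of them Rad21 control members. The next widest CTCF gaps were 96.2 kb and 70.5 kb. For Rad21 in the parental line the widest gap was 466.2 kb, from chr12:114961036-114961918 to chr12:115427324-115427984. In that line 4 bins in a row, from 115000000 to 115399999, held no Rad21 control member. The Rad21-degron line without IAA had 2, 1, 0 and 0 Rad21 control members there. CTCF control members numbered 5, 6, 5 and 2 in those same bins.

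By 100-kb bin the number of CTCF control members ran from 0 to 20 with a median of 5. The bin from 116800000 to 116899999 held the most CTCF control members, 20, and 10 Rad21 control members, of which the bin from 116100000 to 116199999 held the most, 11. Of its 20 CTCF members 15 had a mean parental fold under 5, and the range of means was 3.74 to 16.9. The strongest there was chr12:116837317-116838328, with CTCF folds of 14.3, 15.7 and 20.8 in the parental libraries and 6.29, 6.35 and 5.81 after CTCF depletion. Of the 20, 9 were kept in every CTCF-degron library, 9 in some and 2 in none.

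**Figure D3:**
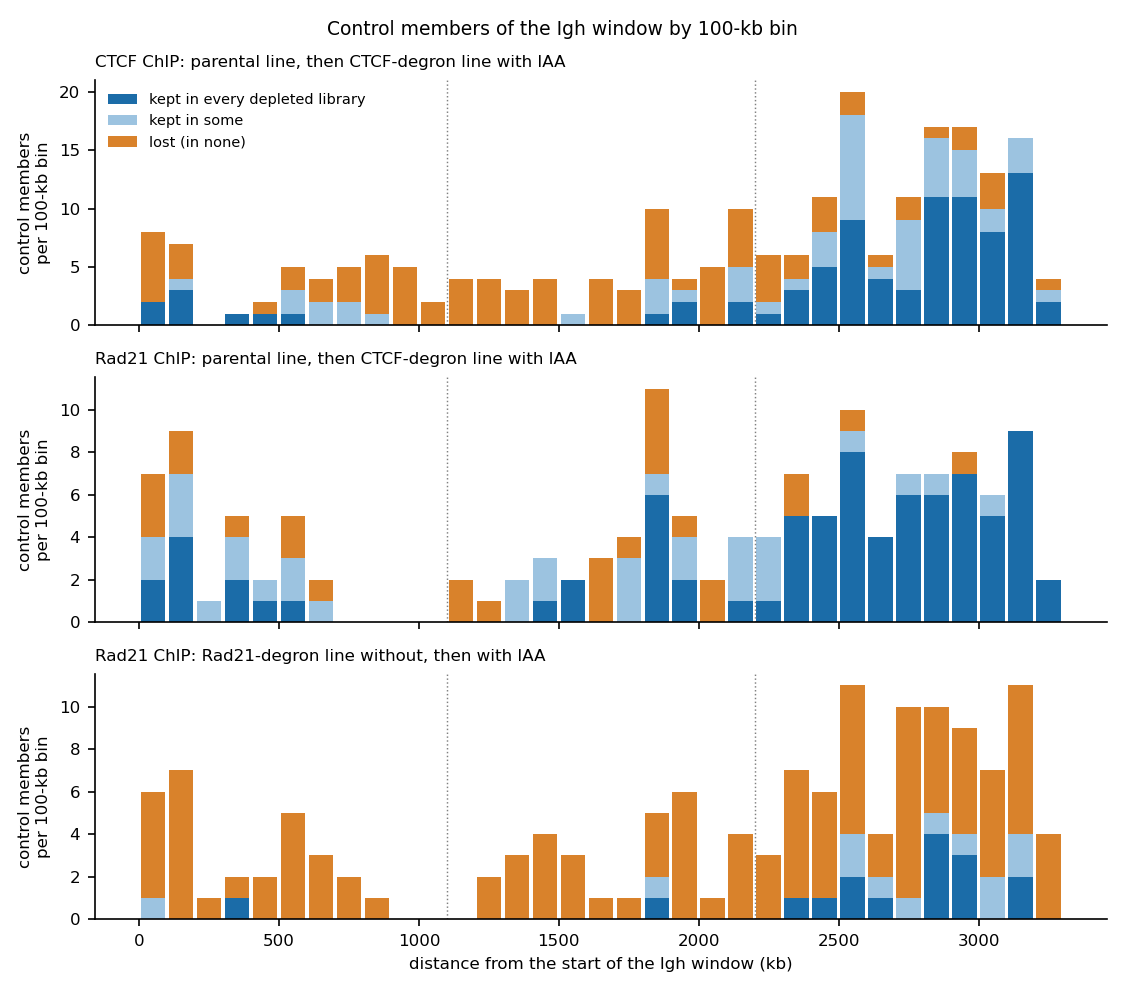
Control members of the Igh window in 33 bins of 100 kb (horizontal axis, kb from the window start), coloured by whether they were called in every, some or none of the depleted libraries; dotted lines part the first, middle and last 1.1 Mb. Dark blue, kept in every depleted library, fills over 50% of the Rad21 bar in all 10 bins from 2300 kb on and over 50% of the CTCF bar in 5 of them, and orange, lost, fills most of the bottom panel.

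After CTCF depletion 51.3, 53.6 and 42.0% of the 224 CTCF control members of the window were still called (48.96% ± 6.16, SD, n = 3). With at least 50% of a member covered this was 14.7%, and among peaks with a q of 0.001 or less 29.4%. Each parental library held 89.8% ± 4.86 of the members found in both other parental libraries. By count, 89 members (39.7%) were lost, 83 (37.1%) were kept in every library and 52 in some. Over all 33430 CTCF control members of the mouse chromosomes 69.7% were lost and 13.6% were kept in every library, so the window lost fewer and kept more than this background.

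Per library, the percent kept was 26.1 to 28.6 points higher in the window than outside it (mean 27.3, SD 1.27, n = 3). The difference was 8.99 points with control members called in at least 1 parental library, 9.64 with at least 50% of a member covered, 14.5 with a q of 0.001 or less and 16.5 among members under 1000 bp. An exact sign-flip permutation test gave p = 0.25, and 3 libraries allow no smaller value. Outside the window 21.7% ± 6.32 was kept. The window was also higher than the light-chain locus Igk on chromosome 6 (17.8% ± 5.41 of 77) by 31.2 points and than the T-cell receptor locus Tcra/Tcrd on chromosome 14 (18.9% ± 12.8 of 76) by 30.1 points, in 3 of 3 libraries each (exact sign-flip p = 0.25 for both).

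The difference came with position. In the last 1.1 Mb 70.6% ± 8.04 of 127 CTCF control members were kept, in the first 1.1 Mb 25.2% ± 9.25 of 45 and in the middle 16.7% ± 2.22 of 52 (SD, n = 3 libraries). The last 1.1 Mb exceeded the rest by 44.9 to 57.8 points in the 3 libraries, a split that was not tested. From 114900000 to 116099999, 12 bins in a row, no CTCF control member was kept in every CTCF-degron library, and 39 of the 45 there were lost. In the bin from 117400000 to 117499999 all 16 CTCF control members were called in at least 1 CTCF-degron library, and 13 in all 3.

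The members kept at the distal VH end were mostly of low fold enrichment. In the window the median of the mean parental fold was 4.64 for the 83 CTCF members kept in every library and 6.24 for the 89 lost, whereas outside it the order was the other way round, 8.80 for kept and 6.08 for lost. The last 1.1 Mb alone had this order (4.47 for kept and 6.12 for lost), and the first and middle 1.1 Mb had that of the outside (8.58 and 6.29). Of the 127 CTCF control members of the last 1.1 Mb, 61.4% had a mean percentile rank below 50 among the peaks of their parental lists, against 31.4% of those outside the window. Of these low-ranked members 73.9% ± 8.73 were kept in the last 1.1 Mb, 25.3% ± 2.31 in the rest of the window and 22.4% ± 5.99 outside it (SD, n = 3).

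Among CTCF members of rank 75 and above, 76.8% ± 6.31 were kept in the last 1.1 Mb, 36.8% ± 10.5 in the rest of the window and 31.7% ± 10.2 outside it. The strongest CTCF member of the window, chr12:116964996-116967472, had parental folds of 28.1, 30.3 and 36.0 and folds of 4.19, 4.90 and 4.84 after depletion. Other strong members were kept as well, chr12:117500889-117501499 (15.96, 15.5 and 22.5, then 6.44, 10.2 and 5.53) and chr12:116837317-116838328, given above. The strongest lost members were chr12:116214687-116216304 (13.8, 12.9 and 16.4), chr12:116926393-116926895 (9.85, 12.9 and 15.3) and chr12:116567809-116568737 (9.88, 11.2 and 12.8). The lost member at 116926393 and the strongest kept one lay in the same 100-kb bin.

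Width moved with these shares, and since a member spans the peaks of all lists, its width is not independent of being kept. Fold and rank are those of the highest peak of a member, so they are not independent of width either. The median width was 1764 bp for CTCF members kept in every library and 656 bp for those lost. Within members of at least 500 but under 1000 bp, 51.3% ± 8.01 of 52 were kept in the last 1.1 Mb, 12.5% ± 5.51 of 48 in the rest of the window and 13.9% ± 5.45 of 16118 outside it. Among members of 2000 bp or more the window kept 95.6% ± 3.04 of 38 and the outside 67.9% ± 18.2 of 2230. No CTCF member of the window was gained after depletion, of 225 in no parental list, where 0.474% were gained over all mouse members.

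**Figure D4:**
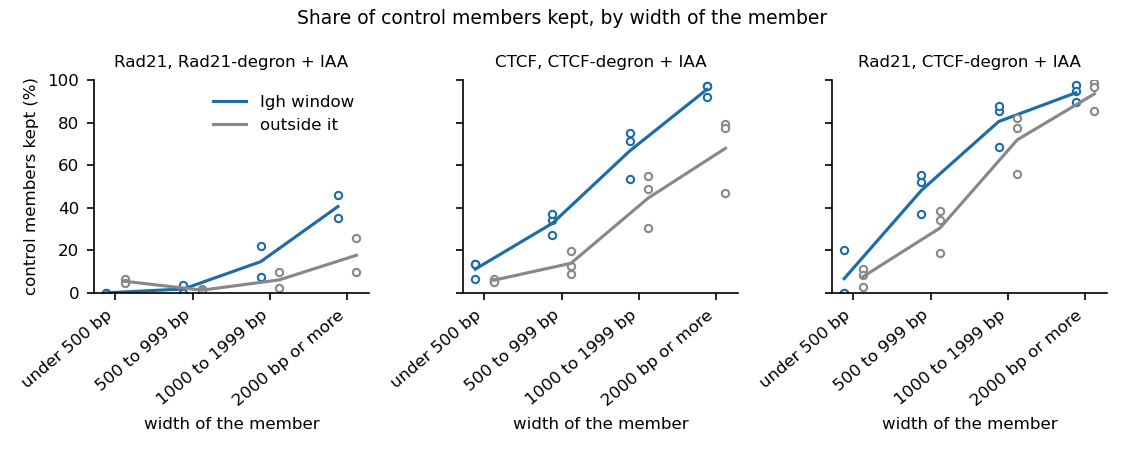
Percent of control members kept (vertical axis) by the width of the member in bp (horizontal axis), in the Igh window (blue) and outside it (grey); circles are depleted libraries and lines join their means, for classes of at least 5 members. For CTCF the blue line lies above the grey one in each width class, and for Rad21 in the CTCF-degron line both meet at 2000 bp or more.

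Of the 139 Rad21 control members of the parental line, 73.4, 74.1 and 59.7% were called in the CTCF-degron libraries (69.1% ± 8.11, SD, n = 3), against 48.5% ± 10.95 outside the window. With at least 50% of a member covered 28.9% were kept. The difference was 16.6 to 23.6 points per library (mean 20.6, exact sign-flip permutation p = 0.25). It was 7.38 points with at least 50% of a member covered and 12.9 with control members called in at least 1 parental library. With the full lists and members called in all 3 it was 32.2 points against Igk and 21.4 points against Tcra/Tcrd, again in 3 of 3 libraries (exact sign-flip p = 0.25 each). In the window 27 members were lost and 80 kept in every library, where over all 24942 Rad21 control members 41.4% were lost and 35.7% kept in every library. Without parental Rad21 replicate 3, which enlarged the set of control members, the lost ones numbered 42 and 63.8% were kept.

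By position 88.9% ± 4.18 of 69 Rad21 control members were kept in the last 1.1 Mb, 52.7% ± 17.8 of 31 in the first and 47.0% ± 7.83 of 39 in the middle. Only 4 of the 27 lost members lay in the last 1.1 Mb. With at least 50% of a member required to be covered by a library's peaks, this order turned, the last 1.1 Mb being 5.06 points below the rest. The 3 strongest lost members were chr12:114340537-114341258 in Mta1 (parental Rad21 folds of 13.5, 15.6 and 8.02), chr12:114845497-114846557 (15.98, 13.4 and 7.05) and chr12:116636642-116637500 (12.5, 11.4 and 7.09). All 3 were CTCF control members that were lost for CTCF too, and lost for Rad21 after Rad21 depletion.

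Rad21 control members of the window were kept more often where a CTCF call was left after depletion. Whether Rad21 depended on the CTCF left there was not tested. Where CTCF was called in all 3 CTCF-degron CTCF libraries, all of the 57 Rad21 control members were kept in all 3 Rad21 libraries. Where it was called in some, 79.4% ± 15.3 of 21 were kept, and where it was called in none, 23.5% ± 14.4 of 44 (SD, n = 3). Outside the window the same classes gave 97.7% ± 3.63 of 3256, 86.1% ± 17.5 of 4394 and 14.3% ± 8.07 of 12679. Of the 44 members that lost CTCF, 25 lost Rad21 as well and 2 kept it in every library. Members that kept CTCF in every library were wider, with a median of 2347 bp against 859 bp.

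Rad21 control members at CTCF control members were kept at 68.9% ± 7.82 of 122 and those away from them at 70.6% ± 10.2 of 17, a difference of -1.74 points (SD 2.42, exact sign-flip permutation p = 0.5) that changed sign and size with the libraries and the processing. It was -25.5 points among members under 1000 bp, -19.6 with a fold of 4 or more, -17.3 with a q of 0.001 or less, and 39.5 with control members called in at least 1 library. Outside the window the values were 43.2% ± 9.35 of 20329 and 72.6% ± 18.2 of 4474. After CTCF depletion 4 members of the window gained Rad21, of 308 in no parental Rad21 list, where 0.674% of all such mouse members did. The 4 lay in the last 1.1 Mb, among them chr12:116631614-116632232 with Rad21 folds of 4.40, 5.28 and 5.07 and no CTCF peak in any list. Rad21 was also called at that member in 1 Rad21-degron library without IAA, at 4.10. The gained members chr12:116810393-116810997 and chr12:117183183-117183558 were called for CTCF in all 3 parental libraries.

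**Figure D5:**
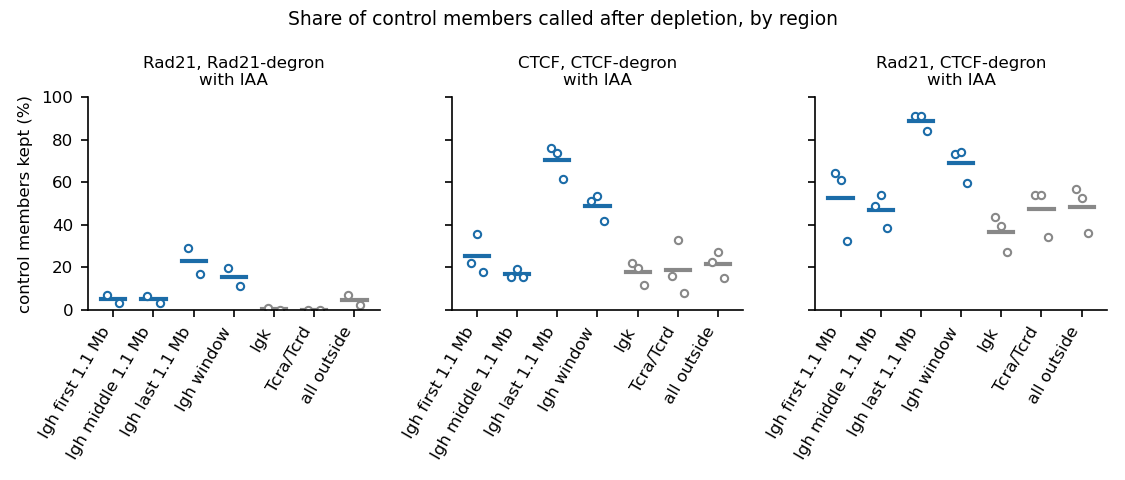
Percent of control members still called in each depleted library (circles) and the mean (bars) in the first, middle and last 1.1 Mb of the Igh window, the whole window, Igk, Tcra/Tcrd and all mouse sequence outside the window. The last 1.1 Mb stands at 70.6% for CTCF and 88.9% for Rad21 in the CTCF-degron line, above every other region drawn.

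Rad21 depletion left few members. Of the 141 Rad21 control members of the Rad21-degron line, 19.9 and 11.3% were called with IAA (15.6% ± 6.02, SD, n = 2), against 7.20 and 2.42% outside the window. With at least 50% of a member covered the percent kept in the window was 0, and with the lists shortened to the shortest it was 47.4. Each library without IAA held 75.7% ± 13.8 of the members of the other. In the window 113 members were lost, 16 were kept in both libraries and none was gained, where over 18428 members 92.3% were lost and 2.07% kept, and 0.232% of mouse members were gained. The difference from outside was 8.93 and 12.7 points (exact sign-flip permutation p = 0.5, as low as 2 libraries allow). It was -0.03 points among members under 1000 bp, and -6.46 points with at least 50% of a member covered. Without replicate 2 of the libraries without IAA, the control members were the 214 called in replicate 1. Of these 185 were lost, and 10.5% were kept per library on average.

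Of the 29 and 30 control members in the first and middle 1.1 Mb, 27 and 28 were lost with IAA (93.1 and 93.3%). Outside the window 92.4% were lost, so these parts lay near the background. Of the 82 in the last 1.1 Mb 58 were lost (70.7%). In 14 bins in a row, from 114700000 to 116099999, all 27 control members were lost. The strongest lost member was the strongest CTCF member named above, chr12:116964996-116967472, with Rad21 folds of 16.3 and 12.5 without IAA. The next were the member with 7 motif matches and chr12:117465965-117467093 (13.5 and 10.6). Of the 56 control members of at least 500 but under 1000 bp 54 were lost, and of the 37 of 2000 bp or more 20 were lost (96.4 and 54.1%). Outside the window 98.1 and 73.0% of members of these widths were lost.

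The 2 depletions can be set side by side at the 111 members called for Rad21 in all 5 libraries without IAA. Of these, 85 were lost after Rad21 depletion and 13 after CTCF depletion, and all 13 were among the 85. Over all 15879 such mouse members 92.8% were lost after Rad21 depletion and 36.7% after CTCF depletion, and 5830 of the latter 5831 were lost in both, so this nesting was not particular to the window. A further 50 (45.05%, against 34.8% over all mouse members) were lost after Rad21 depletion and kept in every CTCF-degron library, and 34 of these lay in the last 1.1 Mb. Both depletions left 16 of the 111 in every depleted library (14.4%, against 1.69%).

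Those 16 members are the ones called in every one of the 16 lists, 2.09% of the 764, where 0.262% of all mouse members were called in every list. They were all the members of the window called in both Rad21-degron libraries with IAA, and 14 lay in the last 1.1 Mb. Their median width was 3776 bp, the widest reaching 14001 bp at chr12:117240962-117254962. In most of them the CTCF fold was modest: at chr12:116831283-116832943 it was 4.83, 4.62 and 4.55 in the parental and 5.34, 4.80 and 5.43 in the CTCF-degron libraries. There Rad21 gave 4.09 and 3.80 without and 4.52 and 4.38 with IAA in the Rad21-degron line, so all lists held a peak of much the same fold.

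At these 16 members the mean CTCF fold was higher in the CTCF-degron than in the parental libraries at 8 and lower at 8, and the mean Rad21 fold was higher at 9 and lower at 7. After Rad21 depletion the mean Rad21 fold was lower at 14 and higher at 2. The 16 were chosen for a peak in every list, so their folds after depletion are not independent of that choice. The same counts were not taken over all mouse members of every list. At chr12:114668023-114670893, which ends the widest CTCF gap, CTCF folds were 7.35, 4.97 and 5.79 in the parental and 16.5, 14.8 and 9.08 in the CTCF-degron libraries, the highest of the window in each of the 3. At chr12:117146014-117148017 Rad21 folds were 10.2, 10.9 and 7.97 in the parental and 24.2, 18.9 and 15.1 in the CTCF-degron line. In the Rad21-degron line they were 13.6 and 9.90 without and 11.4 and 8.11 with IAA. Others were strong in the controls and lower after depletion, such as chr12:116798059-116801705 with CTCF folds of 12.5, 12.4 and 22.1 and then 6.45, 8.57 and 5.97. The input libraries, which would show signal without an antibody, were not analysed here, and the part of such signal in these members was not tested.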

How the data were processed

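ChIP-seq measured CTCF and Rad21 binding in 16 libraries of 6 groups, each with a deposited list of broad peaks. The 8 input samples were not analysed here. Reads were aligned to an mm9 hybrid, per the labels, with Bowtie2 2.2.8 and SAMtools 1.8 named in the submitters' processing notes. Which peak caller was run, with which threshold, and whether inputs served as background is not given in the sources used here. In the lists the authors deposited, each peak has a fold enrichment (a linear ratio), −log10 of its p-value, −log10 of its q-value and a whole-number score. The lowest fold listed was 3.26 and the lowest −log10 q-value 1.28. Read numbers are not among these columns, and the depth behind each peak is therefore unknown. Peaks on human contigs, present in the 8 lists with HCT116 spike-in cells, were left out. Peak names carry short codes that differ among the CTCF-degron libraries, whose meaning the labels do not give.

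A member was called in a library where a peak overlapped it by at least 1 bp. A control member called in no depleted library was lost, and a member of every depleted and no control library was gained. Group means of log2 values were tested by exact two-sided permutation, and differences within libraries with exact sign-flip tests, in Python 3.11.15 with numpy 2.4.6 and pandas 2.3.3. Percents kept were not tested against the controls that chose the members. The labels do not say that replicates are separate cultures, so p-values measure only the spread between these samples. Named sites are the 3 lost and 3 kept members of highest mean control rank per depletion, the CTCF control members of the densest bin, the flanks of the 3 widest CTCF gaps, members of all 16 lists, up to 3 gained members per depletion and, added later, the CTCF members of the first 200 kb. The scripts were tested on simulated data. The members and lists were chosen with earlier results of these data known.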

Additional observations from a re-analysis of the deposited data

How the results depend on the processing

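Under the alternatives, 20 of 302 values changed sign and 36, of those without a test, moved beyond the replicate spread or, for counts, by over 1.5 times. The other 246 kept their direction, and the tested ones among them could still differ in size, since none passed the adjusted threshold. The log2 difference in members called ran from -6.65 to -0.78 in the Rad21-degron line and from -2.65 to 1.101 for CTCF, and the percent kept minus that outside from -6.46 to 42.6 points in the Rad21-degron line, from 8.99 to 29.8 for CTCF and from 7.38 to 25.0 for Rad21 after CTCF depletion. Rad21 at CTCF minus away ran from -25.5 to 39.5 points. "Last against rest" means the percent kept in the last 1.1 Mb minus that in the rest of the window. With peaks of q 0.001 or less, 65 Rad21 members were lost after Rad21 depletion, the percent kept after CTCF depletion was 29.4 for CTCF and 56.2 for Rad21, and CTCF last against rest was 36.1 points. With a fold of 4 or more, the log2 difference in Rad21 members after CTCF depletion was 0.18. With lists shortened to the shortest, the Rad21-degron line gave a log2 share of -0.38, 47.4% kept, 25.0 points last against rest and 8 lost. CTCF then gave log2 1.101 in members, 65.8% kept, 36.7 points and 10 lost. Rad21 members then differed by log2 0.46 after CTCF depletion and by 0.37 between the lines without IAA. With 50% of a member covered, the Rad21-degron line gave a log2 share of -2.75, 0% kept, -6.46 points against outside, 0 points last against rest and 20 lost. CTCF then gave 14.7% kept and 26.2 points, and Rad21 after CTCF depletion 28.9% kept, -5.06 points and 17 lost. With control members called in at least 1 control library, the percent kept, last against rest and number lost were 9.45, 11.7 and 209 in the Rad21-degron line, 26.1, 29.3 and 337 for CTCF, and 42.6, 30.0 and 185 for Rad21 after CTCF depletion, where members at CTCF exceeded those away from it by 39.5 points. In spike-in libraries alone, Rad21 members differed by log2 0.24 after CTCF depletion and by 0.18 between the lines without IAA. A pair of alternatives was chosen after seeing the data. Among members under 1000 bp, the Rad21-degron line gave a log2 share of -1.39, 1.59% kept, -0.026 points against outside, 3.45 points last against rest and 61 lost. CTCF gave 27.7% and 38.7 points, and Rad21 after CTCF depletion log2 0.090 in members, 44.6% and 30.8 points. With sites merged from the control lists alone, members at CTCF exceeded those away from it by 1.95 points. Leaving out each library in turn, CTCF last against rest ran from 43.1 to 52.5 points. Rad21 members lost then ran from 113 to 185 in the Rad21-degron and from 27 to 42 in the CTCF-degron comparison. Leaving out a control library can enlarge the set of control members, so these counts do not share a total. Rad21 at CTCF minus away ran from -3.11 to 11.7 points, being 0.36 without parental CTCF replicate 1 and 11.7 without parental Rad21 replicate 3. The log2 difference in Rad21 members ran from -0.34 to 0.47 after CTCF depletion, being 0.24 without CTCF-degron replicate 3 and 0.47 without parental replicate 1. Between the lines without IAA it ran from -0.63 to 0.18, being 0.18 without parental replicate 1. The cause of these changes was not tested. The deviations of same-numbered libraries correlated at 0.06 in the Rad21-degron comparison and at most at 0.10 in the others. With 2 libraries a group the 0.06 is a single value. Yet the number of members called in the window fell with the replicate number in every group. Whether same-numbered libraries share a batch was not tested. With the replicate block the log2 difference in CTCF members was -1.25 (exact sign-flip p = 0.25), and no block changed a call. Without read counts, a site near the calling threshold cannot be told from an unbound one.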
